A study of Mus musculus with 20 samples.

Results

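The wild-type 2-cell embryo was compared with the wild-type germinal vesicle (GV) oocyte, the net change in mRNA over meiotic maturation, fertilization and the first cleavage. Genes were counted as members when their mean was at least 1 FPKM (fragments per kilobase of transcript, scaled to sequencing depth) in either group, which 11164 of the 23309 gene symbols in the files met. There were 2 libraries of 2-cell embryos from wild-type mothers, set against 2 libraries of GV oocytes from wild-type females, all of the ICR strain. Females were 21 to 23 days old and had received PMSG and hCG, hormones that stimulate follicle growth and ovulation, and those giving embryos had been mated. Each library came from 60 pooled oocytes or embryos. The labels do not say that the libraries of a group came from separate females, so the p-values measure only the spread between these libraries. The 2 MII oocyte libraries (held in the second meiotic metaphase) and 2 zygote libraries of the same wild type lie between the 2 stages, and 2 libraries of each of the 4 stages were labelled Btg4-/-. The labels do not describe the Btg4 allele, and embryos of that group are named by the genotype of the mothers.

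A mouse oocyte at the GV stage is held in the first meiotic prophase, is transcriptionally quiet once fully grown, and carries a store of maternal mRNA made during growth. After meiosis resumes much of that store is deadenylated and degraded, in part through the CCR4-NOT deadenylase that the adaptor BTG4 recruits, and the embryo's own genome is switched on in a major wave at the 2-cell stage. What a 2-cell embryo holds is therefore a mixture of surviving maternal mRNA and new embryonic mRNA, which a bulk FPKM value does not separate.

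The 2-cell libraries had a summed FPKM of 299983 and 302000, against 470460 and 454592 in the GV libraries, while 10008 and 10058 symbols reached 1 FPKM in 2-cell embryos, against 8953 and 8976 in GV oocytes. Depth relative to the first GV library, read from the width of the deposited intervals, was 0.98 and 0.71 in the 2-cell libraries and 1 and 0.77 in the GV libraries, and the same intervals, read as counting error alone, imply 16.1 and 12.7 fragments for a gene at 1 FPKM in 2-cell embryos and 16.4 and 13.3 in GV oocytes. The 1000 most abundant genes held 65.5% of the summed FPKM in 2-cell embryos and 75.4% in GV oocytes. The 45S ribosomal RNA precursor Rn45s took 4.97% of the summed FPKM in each 2-cell library, against 2.17% and 2.37% in the GV libraries. Replicates correlated across genes with r = 0.942 for the 2-cell pair and 0.980 for the GV pair on the log2 scale. Another wild-type GV library, from a second experiment in the series on Erk-/- oocytes whose table was normalized separately, differed from these 2 in many genes: the zona gene Zp3 stood at 4768 FPKM there against 152 and 155 FPKM here, and Rn45s took 0.026%. With that library in place of the 2 GV libraries, 1966 of the 4313 genes called higher below were higher and 1040 lower, and 2084 of the 3434 genes called lower were lower and 386 higher, and the cause was not tested.

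Of the 11164 genes, 4313 rose and 3434 fell in 2-cell embryos, and 3417 passed in neither direction, by limma on log2(FPKM + 1) with Benjamini-Hochberg adjustment at 0.05. Over all 12311 genes tested, 35.2% were called higher and 28.3% lower. At least a 2-fold difference was met by 3424 of the higher and 2817 of the lower genes (27.8% and 22.9% of all tested), and at least an 8-fold difference by 427 and 591. Both 2-cell libraries stood above both GV libraries for 4309 of the 4313 rises, and both stood below for 3430 of the 3434 falls. These counts cover called genes only, for which such separation is close to given, so they add no support to the calls. The median log2 change over the members was 0.27. It was 0.14 with median-of-ratios scaling, 0.15 after quantile normalization and 0.86 with total scaling, which brings every library to the same summed FPKM, so the share of calls that were rises was 55.7% as deposited, 68.2% with total scaling and 41.4% against the Erk-experiment GV library. An exact permutation test of 2 libraries against 2 cannot go below p = 0.333 for a single gene, so all calls rest on the variance that the 8 groups of the fit share. Genes at 1 FPKM or more in both stages numbered 7971, of which 2635 rose and 2710 fell. Another 2179 reached 1 FPKM in 2-cell embryos alone and 1678 of them rose, while 1014 reached it in GV oocytes alone and 724 of them fell. The filter largely set the direction of these genes, since each entered through the stage where it was high. In neither set was a gene called in the other direction. As deposited, rises did not outnumber falls among genes at 1 FPKM or more in both stages. That split was not counted under the other scalings, and with total scaling 5416 of all members were called higher and 2530 lower.

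**Figure D1:**
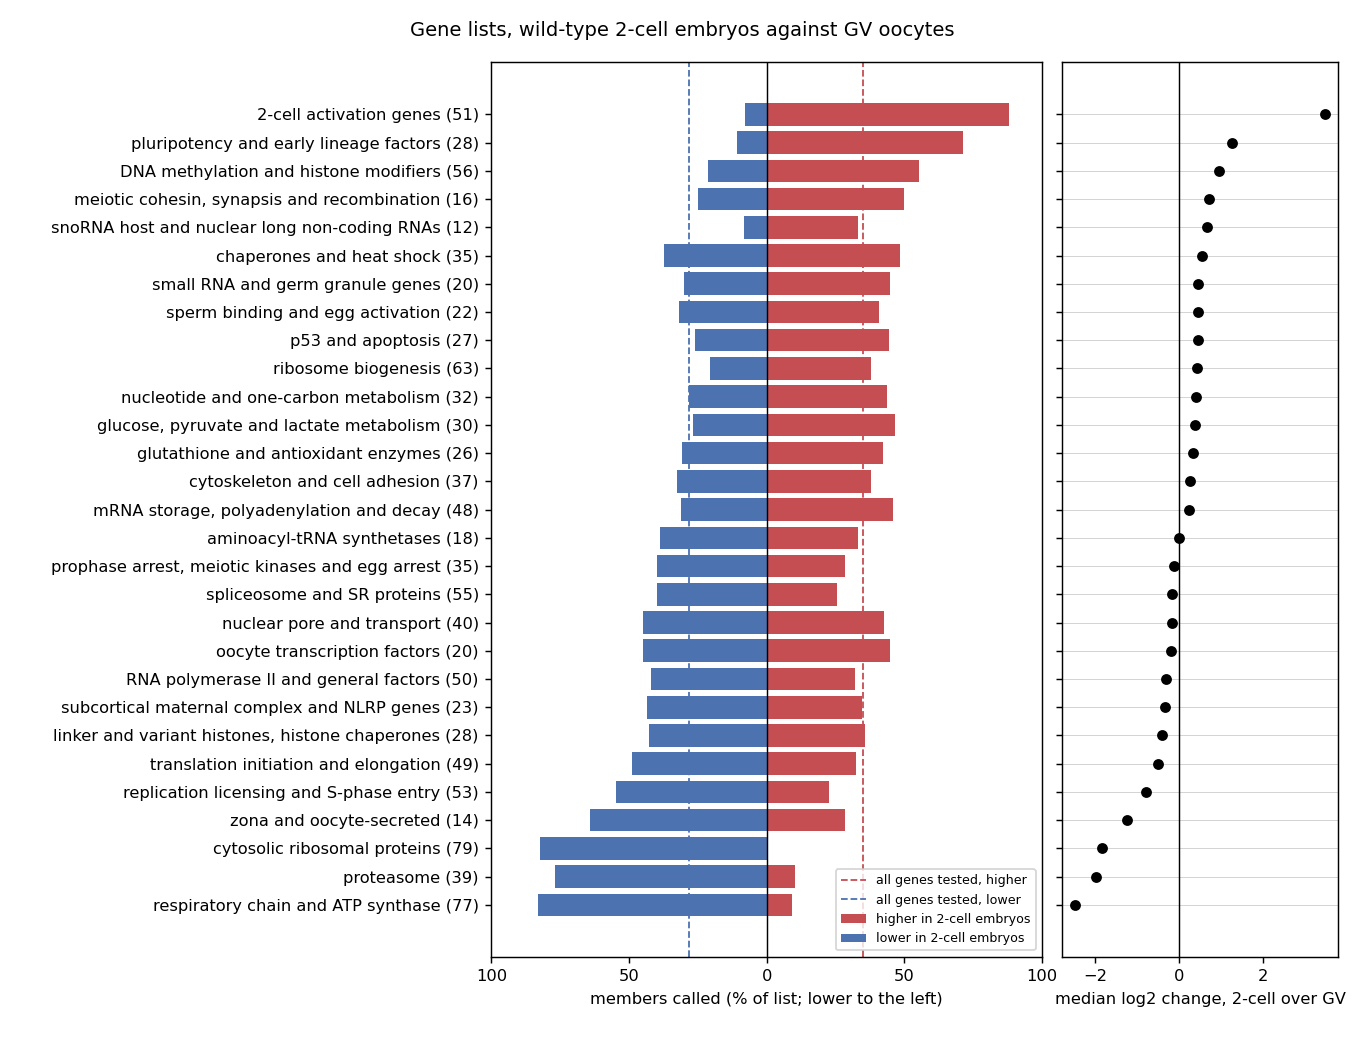
Share of members called higher (to the right) and lower (to the left) in wild-type 2-cell embryos against GV oocytes in 29 gene lists (members in brackets), with the median log2 change of each list at the right. Dashed lines mark the share of all genes tested that were called, 35.2% higher and 28.3% lower; 2-cell activation genes lie at the top with a median of 3.48 and the respiratory chain at the bottom with -2.48.

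The largest falls included genes of meiotic arrest and of oocyte signalling. Mos, the kinase that starts the MAPK cascade holding the mature egg in metaphase, had 4.57 and 2.17 FPKM in the 2-cell libraries, against 1365 and 1214 FPKM in the GV libraries. Its level was 333 and 355 FPKM at MII and 41.4 and 28.9 FPKM in zygotes, and the groups did not overlap at either end. Mos fell by 8.26 on the log2 scale (SE 0.22, limma adjusted p = 3.72e-11). Plat, tissue plasminogen activator, whose mRNA the oocyte stores untranslated, had 10.4 and 6.36 FPKM in the 2-cell libraries, against 848 and 843 FPKM in the GV libraries, and fell by 6.53. Gja4, the connexin of the junctions between oocyte and granulosa cells, had 19.9 and 13.1 FPKM in the 2-cell libraries, against 1626 and 1504 FPKM in the GV libraries, and fell by 6.51. For both genes the 2-cell values lay far below those of either GV library. Dynlt1c, a dynein light chain, had 0.0643 and 0.112 FPKM in the 2-cell libraries, against 355 and 308 FPKM in the GV libraries, and fell by 8.25, and Tpra1, which encodes a multipass membrane protein, had 0.932 and 1.33 FPKM in the 2-cell libraries, against 482 and 453 FPKM in the GV libraries, and fell by 7.79. Mrpl52 and Gstt2, a mitochondrial ribosomal protein and a glutathione transferase, were listed at 0 in both 2-cell libraries, against 107 and 117 FPKM and 98.6 and 88 FPKM in the GV libraries.

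**Figure D2:**
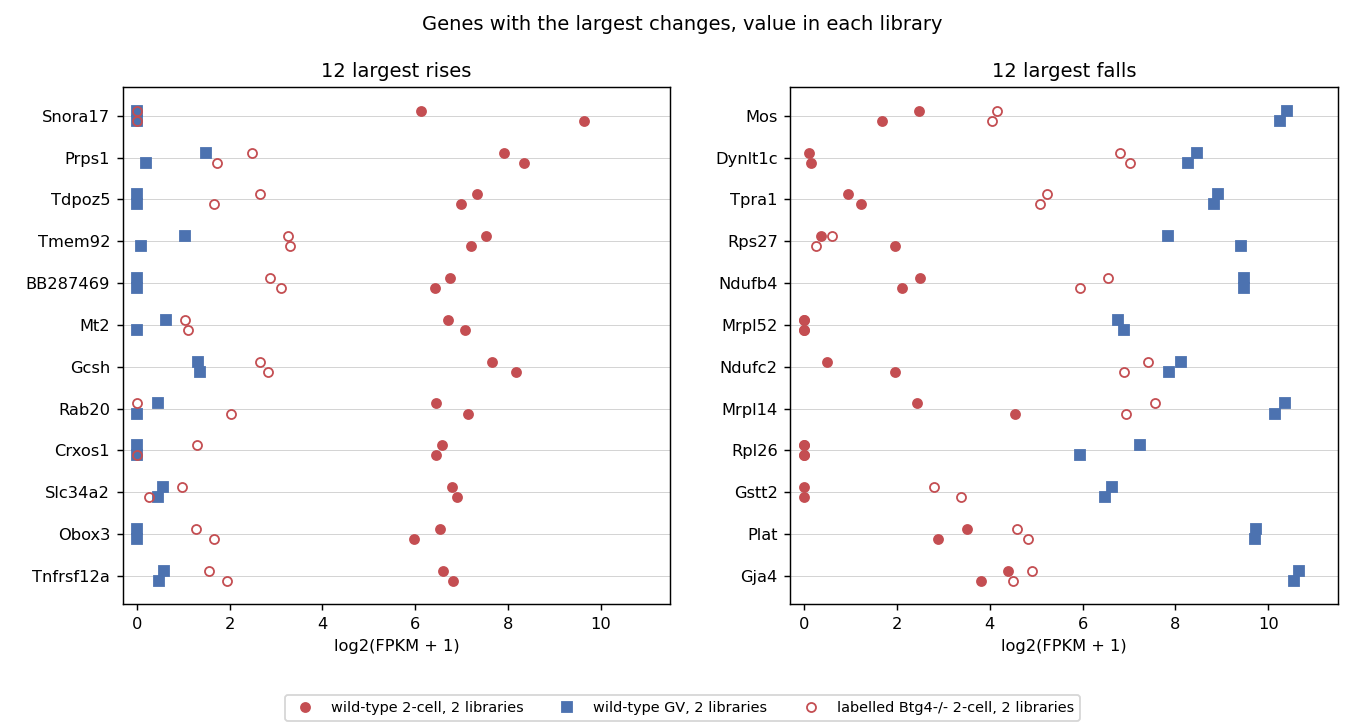
Value in each library, as log2(FPKM + 1), of the 12 genes with the largest rises (left) and the 12 with the largest falls (right); filled circles are wild-type 2-cell libraries, squares wild-type GV libraries and open circles the 2-cell libraries labelled Btg4-/-. Clone names (Gm plus digits, AU, BC, LOC or Rik) were left out. Genes were chosen so that wild-type 2-cell and GV points do not overlap, and for Snora17 the 2-cell points lie at 69.1 and 803 FPKM before the log.

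Among 14 zona pellucida and oocyte-secreted genes 4 rose and 9 fell, with a median log2 change of -1.24. Against the Erk-experiment GV library 12 were lower, with a median of -1.55. Oosp1, an oocyte-secreted protein and the most abundant of them, had 1193 and 1234 FPKM in the 2-cell libraries, against 8215 and 7480.1 FPKM in the GV libraries, and fell by 2.69. Fgf8, a growth factor by which the oocyte signals to cumulus cells, had 9.18 and 8.28 FPKM in the 2-cell libraries, against 344 and 286 FPKM in the GV libraries, and fell by 5.02. Zp1, a structural glycoprotein of the zona, had 24.1 and 16.3 FPKM in the 2-cell libraries, against 152 and 131 FPKM in the GV libraries, and fell by 2.77. All 3 were lower in both 2-cell libraries than in either GV library. The growth factor Bmp15 moved the other way, with 679.7 and 487 FPKM in the 2-cell libraries, against 291 and 314 FPKM in the GV libraries, a change of 0.93 (adjusted p = 4.46e-05), but it stood at 1189 FPKM in the Erk-experiment GV library, above the 2-cell values. Tgfb2, another secreted factor, likewise rose here, with 57.1 and 41.9 FPKM in 2-cell embryos against 11.3 and 16.4 FPKM in GV oocytes. In the Erk-experiment GV library it stood at 49.6 FPKM, between the 2-cell values, and the log2 change against that library was -0.019, near 0.

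Oocyte transcription factors divided evenly, with 9 of 20 higher, 9 lower and a median of -0.18, which turned to 0.37 with total scaling and to 0.15 without the second GV library, where 6 rose. Figla, the bHLH activator of the zona genes, was listed at 0 in both 2-cell libraries, against 14.9 and 15.8 FPKM in the GV libraries. The oocyte homeobox genes of the Obox cluster moved in both directions. Obox1 had 153 and 175 FPKM in the 2-cell libraries, against 1023 and 1044 FPKM in the GV libraries, and Obox2 had 87.9 and 124 FPKM in 2-cell embryos against 1227 and 1253 FPKM in GV oocytes, falls of 2.65 and 3.56. Obox3 and Obox6 instead had 91.9 and 62.1 FPKM and 49.6 and 58.5 FPKM in the 2-cell libraries and were listed at 0 in both GV libraries. Reads of these near-identical copies can be divided between them by the estimation, so single values are uncertain. Gata4, a zinc-finger factor of this list, had 38.4 and 37.5 FPKM in the 2-cell libraries, against 6.33 and 7 FPKM in the GV libraries, and rose by 2.35.

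The subcortical maternal complex, a protein assembly under the oocyte membrane that early cleavage needs, and the oocyte NLRP genes had 8 of 23 members higher and 10 lower. Their median was -0.33, and turned to 0.19 after quantile normalization and to 0.29 with total scaling, while against the Erk-experiment GV library 3 were higher and 18 lower, with a median of -2.42. Khdc3, which encodes the complex member Filia, had 14.6 and 9.65 FPKM in the 2-cell libraries, against 206 and 201 FPKM in the GV libraries, and fell by 3.99. Ooep, another member, had 47.3 and 60.7 FPKM in the 2-cell libraries, against 548 and 519.8 FPKM in the GV libraries, and fell by 3.29. Neither overlapped between the stages. Khdc1a and Khdc1c, KH-domain genes of a cluster on chromosome 1, rose, with 411 and 385 FPKM in 2-cell embryos against 38 and 33.6 FPKM in GV oocytes and with 679 and 720.2 FPKM in 2-cell embryos against 54.8 and 51.8 FPKM in GV oocytes, changes of 3.44 and 3.69. Oog3 had 701 and 503 FPKM in 2-cell embryos against 508 and 526 FPKM in GV oocytes and did not pass (adjusted p = 0.199), though it was called higher without the second 2-cell library.

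Among 35 genes of prophase arrest, meiotic kinases and egg arrest 10 rose and 14 fell, with a median of -0.13 that turned to 0.49 with total scaling and to 0.02 without the second 2-cell library. Against the Erk-experiment GV library 6 were higher and 20 lower. Bub1b, the spindle checkpoint kinase BubR1, had 3.05 and 3.26 FPKM in the 2-cell libraries, against 214 and 211 FPKM in the GV libraries, and its level stayed at 309 and 352 FPKM at MII and 237 and 247 FPKM in zygotes. The 2-cell libraries were thus far below every earlier wild-type library, and the net fall was 5.68 (SE 0.11, adjusted p = 6.04e-12). Prkar1a, the regulatory subunit of the cAMP-dependent kinase that maintains prophase arrest, had 13.7 and 15.6 FPKM in 2-cell embryos against 91.1 and 101 FPKM in GV oocytes and fell by 2.64. Pkmyt1, an inhibitory kinase of CDK1, had 30.7 and 32.9 FPKM in the 2-cell libraries, against 9.8 and 6.45 FPKM in the GV libraries, and rose by 1.87. Cdc25b, the phosphatase that activates CDK1, had 42.6 and 38.8 FPKM in the 2-cell libraries, against 1.11 and 0.8 FPKM in the GV libraries, a rise of 4.42 that turned direction against the Erk-experiment GV library, where it stood at 73.7 FPKM. Pttg1, securin, had 288 and 169 FPKM in 2-cell embryos against 218 and 228 FPKM in GV oocytes and did not pass, with 3049 and 3022 FPKM at MII between them; it was called higher after quantile normalization and with total scaling and lower against the Erk-experiment GV library.

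Genes of mRNA storage, polyadenylation and decay gave 22 rises and 15 falls among 48, with a median of 0.24 that became -0.59 against the Erk-experiment GV library. Pabpn1l, an oocyte form of the nuclear poly(A)-binding protein, had 15 and 20.2 FPKM in the 2-cell libraries, against 1216 and 1209 FPKM in the GV libraries, a fall of 6.04 (SE 0.15, adjusted p = 2.55e-11). Zar1 and Zar1l, RNA-binding proteins of the maternal mRNA store, fell together. Zar1 had 26.4 and 18.7 FPKM in the 2-cell libraries, against 344 and 331 FPKM in the GV libraries, after 2414 and 2520.2 FPKM at MII, and Zar1l had 6.24 and 14.6 FPKM in 2-cell embryos against 353 and 362 FPKM in GV oocytes; the falls were 3.86 and 5.08. Ythdf1, a reader of N6-methyladenosine, rose by 2.24, with 21.2 and 24.9 FPKM in the 2-cell libraries, against 3.37 and 4.9 FPKM in the GV libraries. Btg3, a relative of BTG4, was at 16.3 and 14.3 FPKM in the 2-cell libraries and at 0.16 and 0 FPKM in the GV libraries. Btg4 itself, the gene named in the other genotype, had 1147 and 964 FPKM in the 2-cell libraries, against 1449.6 and 1673 FPKM in the GV libraries. Its fall of 0.57 (limma adjusted p = 0.000916) was small beside the other members named here. The change was not called after quantile normalization (0.30) or with total scaling (0.053), and was 2.28 against the Erk-experiment GV library. In libraries labelled Btg4-/- the gene was at 3514 and 3632 FPKM in 2-cell embryos, against 1979.8 and 1881 FPKM in GV oocytes, above the wild-type values at both stages, so gene-level FPKM gives no check of the label.

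Small RNA and germ granule genes had 9 of 20 higher and 6 lower, with a median of 0.46 that fell to -0.05 after a length correction and to -1.30 against the Erk-experiment GV library. Gtsf1, a piRNA pathway protein, had 34.3 and 19.5 FPKM in the 2-cell libraries, against 609 and 595 FPKM in the GV libraries, and fell by 4.49. Tdrd5, a Tudor-domain protein of the germ granule, had 3.33 and 1.66 FPKM in 2-cell embryos against 90.7 and 95.7 FPKM in GV oocytes and fell by 4.79, and Asz1, another germ granule protein, had 5.8 and 10.7 FPKM in 2-cell embryos against 60.1 and 60.3 FPKM in GV oocytes and fell by 2.78. The transcription factor Mybl1 rose by 1.86, with 6.81 and 8.18 FPKM in the 2-cell libraries, against 1.41 and 1.27 FPKM in the GV libraries. Sperm binding and egg activation genes had 9 of 22 higher and 7 lower, with a median of 0.46 that became -0.65 against the Erk-experiment GV library. Cd9, the egg tetraspanin that gamete fusion requires, had 43.6 and 71.5 FPKM in the 2-cell libraries, against 232 and 191 FPKM in the GV libraries, and fell by 1.89. Orai1, a store-operated calcium channel, had 47.5 and 39 FPKM in 2-cell embryos against 152 and 133 FPKM in GV oocytes and fell by 1.70. Meiotic cohesin, synapsis and recombination genes had 8 of 16 higher and 4 lower at low levels, for example Sycp3, a synaptonemal complex protein, with 13.7 and 17.4 FPKM in 2-cell embryos against 2.49 and 2.22 FPKM in GV oocytes and a rise of 2.29.

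The ribosome, the respiratory chain and the proteasome were lower in 2-cell embryos for most of their genes. Of 79 cytosolic ribosomal protein genes 65 fell and 14 did not pass, with a median log2 change of -1.83. After quantile normalization, and with total scaling, 7 of them were called higher. Their summed FPKM was 8931 and 10165 in 2-cell embryos, against 43753 and 41505 in GV oocytes. Rpl36, of the large subunit, had 17.9 and 28.4 FPKM in the 2-cell libraries, against 1245 and 1135 FPKM in the GV libraries, and fell by 5.66. Rplp1, a stalk protein, had 503 and 693 FPKM in 2-cell embryos against 828 and 803 FPKM in GV oocytes and did not pass (adjusted p = 0.147). Reads from processed pseudogenes of this family can be divided among copies, so values of single members are uncertain, while the median stayed below 0 under every scaling and against the Erk-experiment GV library (-1.97 to -1.21).

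Of 77 nuclear genes of the respiratory chain and ATP synthase 64 fell and 7 rose, with a median of -2.48. The sum over the list was 2985 and 3349 FPKM in 2-cell embryos, against 17914 and 17111 FPKM in GV oocytes. Ndufb4, an accessory subunit of complex I, had 4.61 and 3.31 FPKM in the 2-cell libraries, against 718 and 709 FPKM in the GV libraries, and had already fallen to 33.1 and 44.5 FPKM at MII. Its net fall was 7.18 (SE 0.24, adjusted p = 2.71e-10). Ndufc2 and Ndufa8, of the same complex, had 0.401 and 2.87 FPKM in 2-cell embryos against 278 and 233 FPKM in GV oocytes and 3.21 and 1.53 FPKM in 2-cell embryos against 209 and 190.1 FPKM in GV oocytes, falls of 6.78 and 5.94. Cox8a, a subunit of cytochrome c oxidase, was an exception, with 653 and 633 FPKM in the 2-cell libraries, against 112 and 94.8 FPKM in the GV libraries, a rise of 2.63. Cox6b1, of the same oxidase, had 53 and 103 FPKM in 2-cell embryos against 87.7 and 86 FPKM in GV oocytes and did not pass.

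Of 39 proteasome genes 30 fell and 4 rose, with a median of -1.97. Psma7 and Psmb3, subunits of the catalytic core, had 50.6 and 50.2 FPKM in 2-cell embryos against 1157 and 1097 FPKM in GV oocytes and 36.6 and 24.9 FPKM in 2-cell embryos against 803 and 686 FPKM in GV oocytes, falls of 4.45 and 4.57. Psma7 first stood at 3386 and 5505 FPKM at MII and 2904 and 3226 FPKM in zygotes. Psmc4, an ATPase of the regulatory particle, had 2.77 and 6.36 FPKM in 2-cell embryos against 128 and 118 FPKM in GV oocytes and fell by 4.55. The activators Psme3 and Psme4 were among the 4 that rose: Psme4 had 75.6 and 79.1 FPKM in the 2-cell libraries, against 5.31 and 5.97 FPKM in the GV libraries, a rise of 3.56, and Psme3 had 205 and 206 FPKM in 2-cell embryos against 98.2 and 104 FPKM in GV oocytes, a rise of 1.02. The proteasome and respiratory medians also stayed below 0 under every scaling and against the Erk-experiment GV library.

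The largest rises included genes known as markers of the 2-cell stage. Of 51 listed 2-cell activation genes 45 rose, 4 fell and 2 did not pass, with a median log2 change of 3.48. Tdpoz5, of a multicopy family of BTB-domain genes, was at 161 and 126 FPKM in the 2-cell libraries and listed at 0 in both GV libraries, and Tdpoz4 was at 90.8 and 54.4 FPKM in the 2-cell libraries and likewise at 0 in GV oocytes. Crxos1, a homeobox gene, had 94.4 and 86.3 FPKM in the 2-cell libraries and was listed at 0 in both GV libraries. The 6 Zscan4 genes, zinc-finger factors that gave the name to a 2-cell program, lay between 7.73 and 28.3 FPKM in the 2-cell libraries and at no more than 1.53 FPKM in the GV libraries. Zfp352 had 33.8 and 20.4 FPKM in 2-cell embryos and was listed at 0 in both GV libraries. Tmem92, a membrane protein gene, had 183 and 146 FPKM in the 2-cell libraries, against 1.05 and 0.0684 FPKM in the GV libraries, and rose by 6.80 (SE 0.49, adjusted p = 1.09e-07). The 4 falls included Fam46c, a poly(A) polymerase, with 70.5 and 62.2 FPKM in 2-cell embryos against 551 and 575 FPKM in GV oocytes, and the nuclear body protein gene Sp110, with 166 and 146 FPKM in 2-cell embryos against 288 and 288 FPKM in GV oocytes; the Sp110 call was lost after quantile normalization and with total scaling.

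Promoters of 5 genes that were at or near 0 in GV oocytes and rose are shown because they carry the motifs that were searched. They were chosen after their values were seen. Sequences are from RefSeq on GRCm38.p6, 250 bases before to 50 after each gene start, on the strand of the gene, and those coordinates are not of the mm9 build that the expression files use. In the first 3 the capitals mark TATAA on the gene strand, the core of the TATA box. In the 2 metallothionein promoters the capitals mark TGCGCNC or TGCACNC on either strand, the core of metal response elements.
Zscan4c, chr7:11005495-11005794, plus strand: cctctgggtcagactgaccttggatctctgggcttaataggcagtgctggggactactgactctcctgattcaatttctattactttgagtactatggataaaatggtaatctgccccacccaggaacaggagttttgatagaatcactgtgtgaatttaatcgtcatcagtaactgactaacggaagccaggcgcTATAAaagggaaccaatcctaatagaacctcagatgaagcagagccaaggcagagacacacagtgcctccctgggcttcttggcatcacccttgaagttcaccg
Obox3, chr7:15639728-15640027, minus strand: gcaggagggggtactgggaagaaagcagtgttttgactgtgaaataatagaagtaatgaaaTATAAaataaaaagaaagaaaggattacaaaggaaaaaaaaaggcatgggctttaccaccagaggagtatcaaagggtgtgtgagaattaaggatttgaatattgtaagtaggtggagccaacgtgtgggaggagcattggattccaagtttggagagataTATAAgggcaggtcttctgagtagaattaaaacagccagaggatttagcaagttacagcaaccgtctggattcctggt
Zfp352, chr4:90218570-90218869, plus strand: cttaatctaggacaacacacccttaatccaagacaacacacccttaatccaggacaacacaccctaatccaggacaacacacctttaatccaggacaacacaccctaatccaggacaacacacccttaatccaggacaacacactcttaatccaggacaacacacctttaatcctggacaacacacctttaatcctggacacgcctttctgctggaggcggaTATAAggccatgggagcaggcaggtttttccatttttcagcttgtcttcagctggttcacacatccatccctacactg
Mt1, chr8:94178839-94179138, plus strand: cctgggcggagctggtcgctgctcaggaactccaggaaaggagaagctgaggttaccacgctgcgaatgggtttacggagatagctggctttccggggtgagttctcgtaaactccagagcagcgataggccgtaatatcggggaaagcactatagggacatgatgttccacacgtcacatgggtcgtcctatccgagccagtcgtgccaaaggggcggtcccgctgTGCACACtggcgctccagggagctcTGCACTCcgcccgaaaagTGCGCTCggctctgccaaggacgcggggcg
Mt2, chr8:94172368-94172667, plus strand: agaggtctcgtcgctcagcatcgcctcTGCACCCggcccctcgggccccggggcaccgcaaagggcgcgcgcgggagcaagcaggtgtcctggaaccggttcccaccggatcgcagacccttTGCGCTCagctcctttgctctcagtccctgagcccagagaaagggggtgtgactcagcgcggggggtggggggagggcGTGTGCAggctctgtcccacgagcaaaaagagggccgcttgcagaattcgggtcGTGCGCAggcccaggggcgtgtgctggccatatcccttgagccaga

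TATAA began 28 bases before the gene start in both Obox3 and Zfp352 and 54 bases before it in Zscan4c. Obox3 had a second match 189 bases before the start. A match starting 20 to 40 bases before the start was present in 37 of 337 members that were at least 8-fold higher (11.0%) and in 15 of 474 that were at least 8-fold lower (3.16%), against 3.10% of the 8996 members with a promoter in the table and 4.22% of all 27025 symbols. The metal motif matched 3 times in the Mt1 window and 4 times in the Mt2 window. At least 4 matches were found in 0.588% of all symbols and in 0.989% of members, and any match in 28.2% of all symbols, 40.3% of members, 33.8% of members at least 8-fold higher and 38.2% of those at least 8-fold lower. These matches describe letters in the window and nothing about factor binding, and copies of a multigene family share promoter sequence.

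Metallothioneins, small proteins that bind zinc and copper, were among the largest rises. Mt1 had 109 and 179 FPKM in the 2-cell libraries, against 2.88 and 0 FPKM in the GV libraries, and Mt2 had 104 and 135 FPKM in 2-cell embryos against 0.553 and 0 FPKM in GV oocytes. All 4 of these 2-cell values were far above all 4 GV values. The changes were 6.16 (SE 0.71) and 6.58 (SE 0.43), with adjusted p = 7.98e-06 and 4.23e-08. The list of glutathione and antioxidant enzymes to which both belong had 11 of 26 higher and 8 lower, and its falls included the glutathione transferase Gsta4, with 8.33 and 6.84 FPKM in 2-cell embryos against 173 and 159.6 FPKM in GV oocytes, and thioredoxin Txn1, with 8.08 and 8.96 FPKM in 2-cell embryos against 125 and 103 FPKM in GV oocytes. Prdx2, a peroxiredoxin and the most abundant member of that list, had 1589 and 1182 FPKM in 2-cell embryos against 1595 and 1432 FPKM in GV oocytes and did not pass as deposited, but was called higher after quantile normalization, with total scaling and against the Erk-experiment GV library.

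Nucleotide and one-carbon metabolism held 14 rises and 9 falls among 32 genes, with a median of 0.40. Prps1, the synthetase of the ribose phosphate from which purines and pyrimidines are built, had 240.0 and 326 FPKM in the 2-cell libraries, against 1.82 and 0.142 FPKM in the GV libraries. It stood at 1.13 and 2.28 FPKM at MII and 1.05 and 0.602 FPKM in zygotes, near the GV level. Its rise was 7.29 (SE 0.46, limma adjusted p = 3.22e-08). With clone names left out, this was the largest rise of any gene that encodes a protein among those named. Ppat, the first committed enzyme of purine synthesis, had 18.9 and 24.7 FPKM in the 2-cell libraries, against 1.98 and 1.71 FPKM in the GV libraries, and rose by 2.99. Odc1, the rate-limiting enzyme of polyamine synthesis, had 243 and 289.7 FPKM in 2-cell embryos against 30.3 and 24.1 FPKM in GV oocytes and rose by 3.25. Tyms, thymidylate synthase, had 0.315 and 1.12 FPKM in the 2-cell libraries, against 28.9 and 27.1 FPKM in the GV libraries, and fell by 4.12, and Ahcy, which clears S-adenosylhomocysteine, had 3.64 and 2.07 FPKM in 2-cell embryos against 33.5 and 30.9 FPKM in GV oocytes and fell by 3.13. Gcsh, of the mitochondrial glycine cleavage system, had 202 and 291 FPKM in the 2-cell libraries, against 1.51 and 1.57 FPKM in the GV libraries, and rose by 6.58.

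Other genes that were high in 2-cell embryos and near 0 in GV oocytes encode transport and signalling proteins. Slc34a2, a sodium-phosphate cotransporter, had 111 and 118 FPKM in the 2-cell libraries, against 0.475 and 0.378 FPKM in the GV libraries, and rose by 6.34. Rab20, a small GTPase of vesicle traffic, had 86.3 and 140.2 FPKM in 2-cell embryos against 0.372 and 0 FPKM in GV oocytes and rose by 6.57. Tnfrsf12a, the receptor of the cytokine TWEAK, had 96.4 and 112 FPKM in 2-cell embryos against 0.502 and 0.391 FPKM in GV oocytes and rose by 6.18. All 3 lay below 1 FPKM in both GV libraries, so the groups were far apart. BB287469, of a gene family on chromosome 12, had 106 and 85.4 FPKM in the 2-cell libraries and was listed at 0 in both GV libraries. Snora17, a small nucleolar RNA, had 69.1 and 803 FPKM in the 2-cell libraries and was listed at 0 in all 6 other wild-type libraries; an RNA this short gives a very unstable FPKM, and the second 2-cell library alone set most of its mean. In glucose, pyruvate and lactate metabolism 14 of 30 genes rose and 8 fell, or 5 without either 2-cell library or without the second GV library. The glycolytic enzyme Pgam1 had 43.2 and 50.5 FPKM in the 2-cell libraries, against 5.47 and 6.97 FPKM in the GV libraries, and rose by 2.73, and Aldoa, of the same pathway, had 55.7 and 46.8 FPKM in 2-cell embryos against 245 and 224 FPKM in GV oocytes and fell by 2.17.

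Pluripotency and early lineage factors had 20 of 28 members higher and 3 lower, with a median of 1.27. Klf5, a zinc-finger factor of the early lineages, had 21.8 and 30.5 FPKM in the 2-cell libraries and was listed at 0 in both GV libraries. Fgf4, the growth factor of the inner cell mass, had 11.3 and 18.5 FPKM in 2-cell embryos and was also listed at 0 in both GV libraries. Dppa4, a chromatin-associated factor, had 64.9 and 64.8 FPKM in the 2-cell libraries, against 2 and 0.38 FPKM in the GV libraries, and rose by 5.02. Dppa5a was the opposite case, with 60.7 and 90.7 FPKM in the 2-cell libraries, against 2187 and 2036 FPKM in the GV libraries and a fall of 4.81; it stood at 104 and 137 FPKM at MII and 14.8 and 19.6 FPKM in zygotes. Sall4 had 24.9 and 27.5 FPKM in 2-cell embryos against 30.8 and 30.0 FPKM in GV oocytes and did not pass.

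Of 56 DNA methylation genes and histone modifiers 31 rose and 12 fell, with a median of 0.95 that became -0.73 against the Erk-experiment GV library. Prmt6, an arginine methyltransferase of histone H3, had 61.8 and 53.2 FPKM in the 2-cell libraries, against 0.0662 and 0.223 FPKM in the GV libraries, and rose by 5.68. Kdm5b, a demethylase of H3 lysine 4, had 24.4 and 29.5 FPKM in 2-cell embryos against 0.556 and 0.574 FPKM in GV oocytes, a rise of 4.15, and the acetyltransferase Crebbp had 25.7 and 17.9 FPKM in 2-cell embryos against 1.57 and 1.78 FPKM in GV oocytes, a rise of 3.07. Dnmt1, the maintenance DNA methyltransferase, had 3.74 and 4.37 FPKM in the 2-cell libraries, against 33 and 28.3 FPKM in the GV libraries, and fell by 2.64, and stood at 861 FPKM in the Erk-experiment GV library. Kat8, an acetyltransferase of H4 lysine 16, and Hdac3, a deacetylase, fell by 2.87 and 3.05. Among 28 linker and variant histones and histone chaperones 10 rose and 12 fell, with a median of -0.41 that turned to 0.14 after quantile normalization and to 0.21 with total scaling. H1foo, the oocyte linker histone, had 7.73 and 14.3 FPKM in the 2-cell libraries, against 338 and 337 FPKM in the GV libraries, and fell by 4.87.

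Cell-cycle entry and survival genes were mixed. Of 53 genes of replication licensing and S-phase entry 12 rose and 29 fell, with a median of -0.78. With total scaling 17 rose and 18 fell, with a median of -0.18. Ccne1, cyclin E1, had 176 and 222 FPKM in the 2-cell libraries, against 10.8 and 7.62 FPKM in the GV libraries, after less than 1 FPKM in all MII and zygote libraries of the wild type, and rose by 4.30. Orc2, of the origin recognition complex, had 42.2 and 36.7 FPKM in 2-cell embryos against 4.55 and 3.73 FPKM in GV oocytes and rose by 2.98, while the primase subunit Prim2 had 2.73 and 6.85 FPKM in 2-cell embryos against 60.4 and 60.6 FPKM in GV oocytes and fell by 3.51. In the list of p53 and apoptosis genes 12 of 27 rose and 7 fell, with a median of 0.45. Cdkn1a, the CDK inhibitor p21, had 25.6 and 26.2 FPKM in the 2-cell libraries, against 1.44 and 1.03 FPKM in the GV libraries, and rose by 3.60. Sesn2, a stress-response gene, had 57.6 and 95.5 FPKM in 2-cell embryos against 0.694 and 1.43 FPKM in GV oocytes and rose by 5.21, and Mcl1, an anti-apoptotic BCL2 relative, had 40.4 and 53.3 FPKM in 2-cell embryos against 2.24 and 0.992 FPKM in GV oocytes and rose by 4.22. Bcl2l10, the abundant oocyte member of that family, had 833 and 657 FPKM in the 2-cell libraries, against 4999 and 4735 FPKM in the GV libraries, and fell by 2.72.

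Ribosome biogenesis genes had 24 of 63 members higher and 13 lower, with a median of 0.42 that became -0.84 against the Erk-experiment GV library. Nop16 and Nop2, nucleolar proteins, had 22.8 and 24.9 FPKM in 2-cell embryos against 0.867 and 0.33 FPKM in GV oocytes and 6.88 and 12 FPKM in 2-cell embryos against 0.156 and 0.415 FPKM in GV oocytes, rises of 3.98 and 2.99. Nop16 was listed at 0 in all 4 MII and zygote libraries of the wild type. Rrs1, of large subunit assembly, had 20.9 and 35.7 FPKM in 2-cell embryos against 1.64 and 2.59 FPKM in GV oocytes and rose by 3.20. Emg1, an rRNA methyltransferase, had 26.7 and 38.7 FPKM in the 2-cell libraries, against 523 and 485 FPKM in the GV libraries, and fell by 3.93, and Nat10, an acetyltransferase of rRNA, had 1.09 and 1.1 FPKM in 2-cell embryos against 17.4 and 17.6 FPKM in GV oocytes and fell by 3.14. In the list of snoRNA hosts and nuclear long non-coding RNAs 4 of 12 rose and 1 fell, but 1 rose without the first GV library or without the second 2-cell library, and the fall was lost without the second GV library or without the second 2-cell library.

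Nuclear import, transcription, splicing and translation lists were each divided between rises and falls. Of 40 nuclear pore and transport genes 17 rose and 18 fell; the importin alpha Kpna1 had 28.9 and 24.6 FPKM in the 2-cell libraries, against 0.0494 and 0.0656 FPKM in the GV libraries, and rose by 4.71, and importin 7, Ipo7, had 12.5 and 21.5 FPKM in 2-cell embryos against 0.907 and 0.603 FPKM in GV oocytes and rose by 3.32. Nup37, Nup107 and Nup160, of the Y-shaped scaffold of the pore, fell by 2.66, 2.57 and 2.18. Among 50 genes of RNA polymerase II and general factors 16 rose and 21 fell, and the polymerase subunit Polr2i had 5.51 and 6.75 FPKM in 2-cell embryos against 249 and 251 FPKM in GV oocytes, a fall of 5.14. Of 55 spliceosome and SR protein genes 14 rose (9 without the second 2-cell library) and 22 fell, with SR proteins Srsf1 and Srsf5 higher by 1.74 and 2.08 and the core proteins Snrpd1 and Snrpd2 lower by 2.49 and 3.19. Of 49 translation initiation and elongation genes 16 rose and 24 fell; the release factor Etf1 had 75.7 and 96.2 FPKM in the 2-cell libraries, against 5.33 and 4.72 FPKM in the GV libraries, and rose by 3.84, while Eif3g, of initiation factor 3, had 0.88 and 4.71 FPKM in 2-cell embryos against 125 and 106 FPKM in GV oocytes and fell by 5.15. The medians of these 4 lists, -0.17, -0.30, -0.16 and -0.49, turned positive with total scaling, and were -0.88, -0.24, -0.72 and -0.71 against the Erk-experiment GV library. That of the nuclear pore list also turned to 0.04 after quantile normalization and without the first 2-cell library, and that of the polymerase list to 0.02 after quantile normalization. Of 18 aminoacyl-tRNA synthetases 6 rose and 7 fell, while 15 were lower against the Erk-experiment GV library, where the median of 0.01 became -2.14. Among them was Farsa, with 3.96 and 4.98 FPKM in 2-cell embryos against 159 and 159 FPKM in GV oocytes, a fall of 4.88. Chaperones had 17 of 35 higher and 13 lower, with a median of 0.54 that became -1.53 against the Erk-experiment GV library, and within the TRiC complex Cct6a rose by 2.50 while Cct5 fell by 3.74. Cytoskeleton and adhesion genes had 14 of 37 higher and 12 lower, or 5 higher and 28 lower against the Erk-experiment GV library, with a median of 0.26 that became -1.70 against it and -0.02 without the first 2-cell library. The actin-binding Pfn1 had 50.6 and 66.2 FPKM in 2-cell embryos against 424 and 372 FPKM in GV oocytes, a fall of 2.76.

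Some proteins of the oocyte have a close relative used more widely, and 28 pairs of related genes were set side by side as the share of the summed FPKM of the pair that the first gene held. The first gene was put there as the one linked with oocytes or germ cells, but not every pair holds a germline and a general form of one protein (Cdc25b and Cdc25a, for example), and Rec8, paired with Rad21, was at 0 in every library. The share was lower in both 2-cell libraries than in both GV libraries in 14 pairs and higher in 11. The first gene fell in 11 pairs and rose in 11, and the second rose in 15 and fell in 5. The first fell while the second rose in 6 pairs, and both fell in 3. Pabpn1l held 7.54% and 9.8% of its pair with Pabpn1 in 2-cell embryos, against 95.8% and 95.8% in GV oocytes, with Pabpn1 at 183 and 186 FPKM in 2-cell embryos against 53.8 and 52.8 FPKM in GV oocytes. Patl2, a translational repressor of the oocyte, held 11% and 13.3% beside Patl1 in 2-cell embryos, against 93.5% and 94.4% in GV oocytes. The cytoplasmic poly(A)-binding form Pabpc1l held 20.6% and 15.8% beside Pabpc1 in 2-cell embryos, against 80.1% and 78.4% in GV oocytes, and Lsm14b, of stored mRNA granules, held 28.8% and 22.4% beside Lsm14a in 2-cell embryos, against 82.5% and 80.3% in GV oocytes. In these 4 pairs the order of the genes was the opposite in the 2 stages. The histone methyltransferase Suv39h2 held 46.2% and 37% beside Suv39h1 in 2-cell embryos, against 79.1% and 82.4% in GV oocytes. Shares moved the other way for Elavl2, an RNA-binding protein, which held 95.8% and 95.3% beside Elavl1 in 2-cell embryos, against 74.7% and 77.4% in GV oocytes. Cdc25b held 70.7% and 65.1% beside Cdc25a in 2-cell embryos, against 3.42% and 1.95% in GV oocytes. Shares were not worked out for the Erk-experiment GV library, against which the log2 changes of Cdc25b and Elavl1 turned to -0.84 and 0.85.

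**Figure D3:**
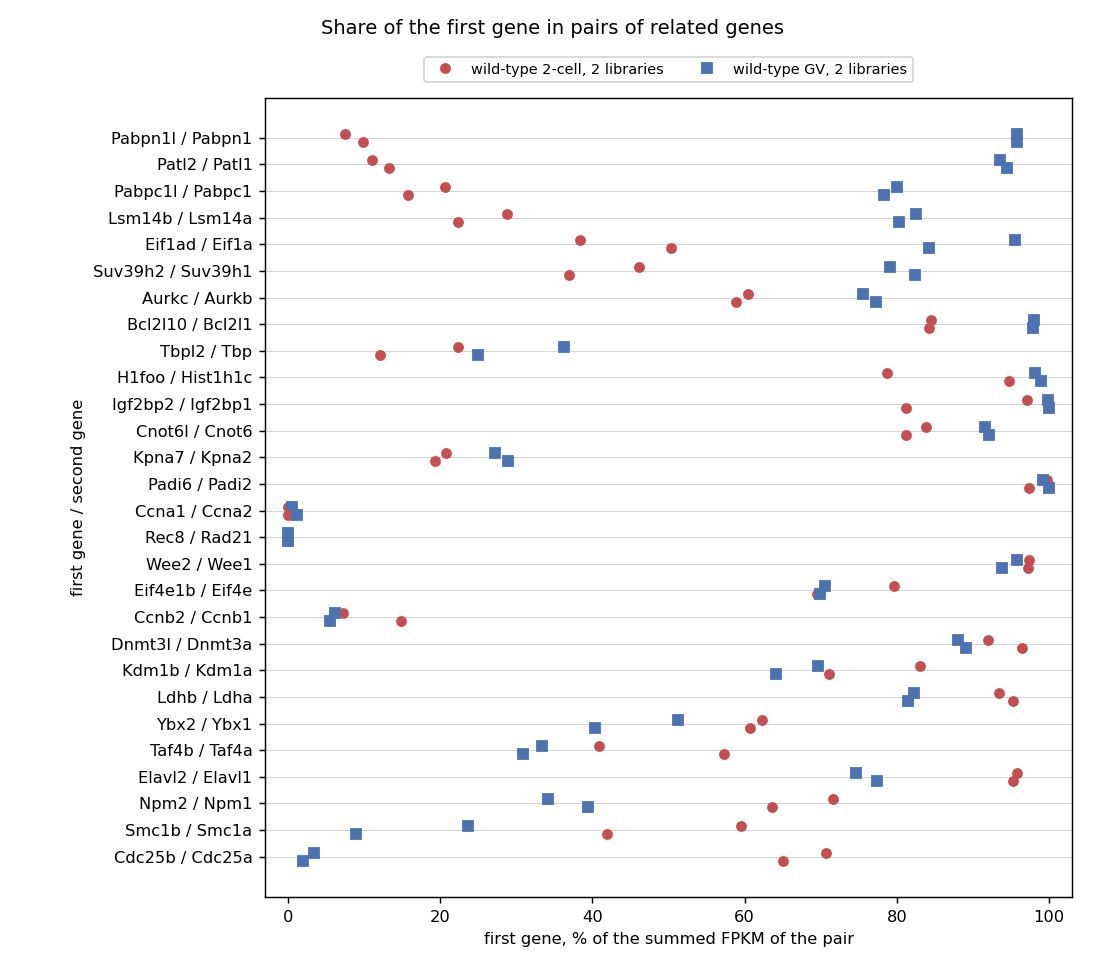
Share of the first gene in the summed FPKM of each of 28 pairs of related genes, as percent on the horizontal axis, in wild-type 2-cell libraries (circles) and wild-type GV libraries (squares). Pabpn1l, Patl2, Pabpc1l and Lsm14b at the top hold less than the second gene in 2-cell embryos and more in GV oocytes, and Cdc25b lies at 70.7% and 65.1% in 2-cell embryos and 3.42% and 1.95% in GV oocytes.

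The MII and zygote libraries place these net changes along the way. Of the 2817 genes that were at least 2-fold lower, the largest fall lay at the GV to MII step in 57.4%, at MII to zygote in 6.21% and at zygote to 2-cell in 36.4%. Of the 3424 genes that were at least 2-fold higher, the largest rise lay at GV to MII in 35.4%, at MII to zygote in 14.2% and at zygote to 2-cell in 50.5%. These steps share libraries with the net change and are given as a description. They were counted on FPKM as deposited alone, and whether the shares hold under the other scalings was not tested.

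A net change near 0 did not mean a steady FPKM. Whether FPKM from purified mRNA followed the amount of RNA at each stage was not tested. In 200 genes the MII and zygote means (FPKM + 1) were both at least 4 times below the GV and the 2-cell means, and 88 of these dips had no called net change, 43 were higher and 69 lower in 2-cell embryos. Cytosolic ribosomal protein genes made up 19 of the 200. Omt2b, an oocyte-expressed gene, had 3393 and 3519 FPKM in the 2-cell libraries, against 2598 and 2525 FPKM in the GV libraries, with 38.6 and 36 FPKM at MII and 61.6 and 60.0 FPKM in zygotes. Its 2-cell and GV levels were high and the 2 stages between them low, and the net rise was 0.43 (adjusted p = 0.00236). Oaz1, the antizyme that inhibits ornithine decarboxylase, had 849 and 866 FPKM in 2-cell embryos against 541 and 647 FPKM in GV oocytes, with 27.8 and 15.7 FPKM at MII and 18.2 and 3.36 FPKM in zygotes. Yrdc, of tRNA modification, had 87.3 and 83.4 FPKM in 2-cell embryos against 119 and 113 FPKM in GV oocytes, with 0.81 and 0.444 FPKM at MII and 0.139 and 0 FPKM in zygotes. The same shape appeared in the libraries labelled Btg4-/- for 51 of the 200. These genes, and the peaks below, were picked for their shape in wild type alone. A smaller number with that shape in other libraries is therefore no measure of a genotype difference.

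The opposite shape, with MII and zygote means at least 4 times both ends, was found in 163 genes, of which 82 had no called net change, 43 were higher and 38 lower in 2-cell embryos, and 17 had it in the libraries labelled Btg4-/-. Itpr2, an inositol trisphosphate receptor of the calcium store, had 3.23 and 1.66 FPKM in the 2-cell libraries, against 2.25 and 2.6 FPKM in the GV libraries, with 164 and 146 FPKM at MII and 143 and 112 FPKM in zygotes. Ssb, the La protein that binds new RNA polymerase III transcripts, had 12.4 and 9 FPKM in 2-cell embryos against 16.1 and 20.6 FPKM in GV oocytes, with 349 and 959.6 FPKM at MII and 646 and 1154 FPKM in zygotes. Both were low at the 2 ends and high in between, and neither had a called net change (adjusted p = 0.929 and 0.153). Smc4, of condensin, followed the same course, with 2.78 and 2.01 FPKM in 2-cell embryos against 2.09 and 1.81 FPKM in GV oocytes and 131 and 172 FPKM in zygotes.

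**Figure D4:**
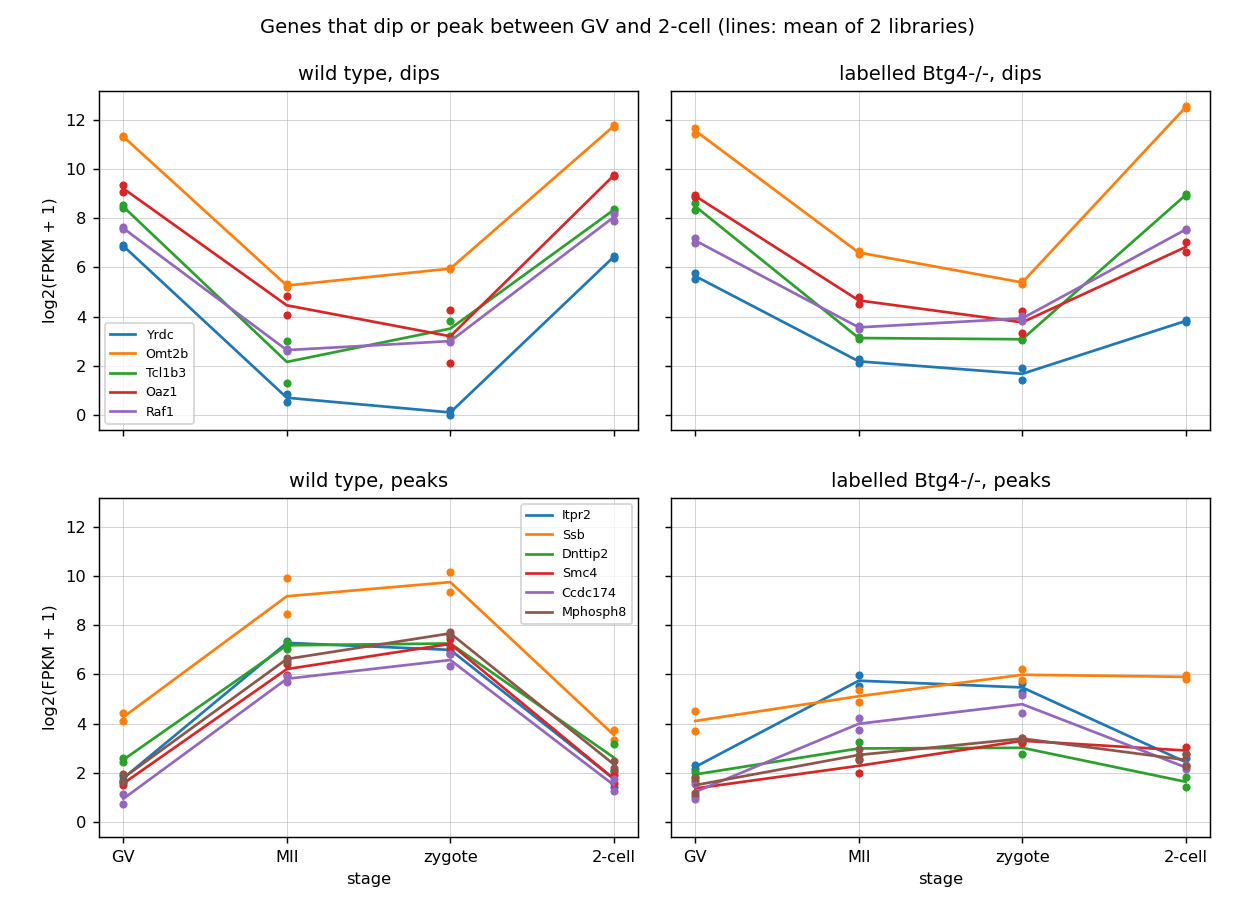
Level at each stage, as log2(FPKM + 1), of 5 of the 6 genes with the largest dips (top) and 6 with the largest peaks (bottom). Wild-type libraries are at the left and libraries labelled Btg4-/- at the right. Points are libraries and lines pass through the mean of 2. The largest dip, Snora70 with a ratio of 172, is not drawn. In wild type the dips are low at MII and in zygotes and the peaks high there, with Ssb at 646 and 1154 FPKM in zygotes.

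Position, length and class of the genes were not used to choose them. Members on the X chromosome, 376 in all, were higher in 47.9% and lower in 25.5%, with a median log2 change of 0.68, against 38.3%, 30.9% and 0.24 for the 10788 autosomal members. The X median stayed above the autosomal one under every scaling (0.56 against 0.12 with median-of-ratios, 0.47 against 0.14 after quantile normalization, 1.35 against 0.83 with total scaling), and the difference was not tested. Long transcripts were higher more often. Over 5 equal classes of length, 50.0% rose and 20.2% fell among the longest, with a median of 0.69, and 31.2% rose and 37.8% fell among the shortest, with a median of -0.10. In libraries labelled Btg4-/- the medians of the same classes were 0.32 for the longest and 0.006 for the shortest. The median transcript length was 1392 bases among genes at least 8-fold higher, 838 among those at least 8-fold lower and 1319 over all members, with a length available for 99.2%. Long non-coding RNAs numbered 349, of which 120 rose (34.4%) and 78 fell (22.3%), with a median of 0.59, against 4138 rises (38.9%), 3317 falls (31.2%) and a median of 0.25 for 10639 protein-coding genes.

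Neighbouring members at least 4-fold higher formed 27 runs of 3 or more genes, and those at least 4-fold lower formed 17. The longest run, 8 genes at chr3:93455464-94136454 (mm9), held 5 Tdpoz genes and 3 neighbours, with log2 changes between 2.10 and 7.17. The 6 Zscan4 genes at chr7:11379590-11987667 changed by 2.71 to 4.64. A run of 5 genes that are not copies of each other, at chr5:124795448-124941131 and holding Cdk2ap1, Sbno1, Setd8, Rilpl2 and Snrnp35, rose by 2.48 to 4.24. A run of 4 genes at chr19:11721774-11849436, among them Oosp1 and Plac1l, fell by 2.37 to 4.40. For genes listed at 0 in GV oocytes these changes depend on the pseudocount. Copies within the Tdpoz and Zscan4 runs share sequence, so these members are not independent of each other.

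The same net change was measured in libraries labelled Btg4-/-, which share no library with the wild type. Among the 11164 members the change was more positive in wild type for 1966 genes and more negative for 2477 by the test of the difference in the same fit; over all genes tested the shares were 16.1% and 20.7%. The share of these calls that were more positive in wild type was 44.2% as deposited, 54.9% with median-of-ratios scaling, 49.6% after quantile normalization and 64.6% with total scaling, so which direction was more frequent depended on the scaling. The net change itself was called positive for 29.6% and negative for 20.2% of all genes tested in the libraries labelled Btg4-/-. The 2-cell activation genes had a median of 3.48 in wild type and 0.49 in libraries labelled Btg4-/-, and 44 of 51 were more positive and 3 more negative in wild type. The medians were -1.24 in wild type and 0.53 in libraries labelled Btg4-/- for the zona and oocyte-secreted genes, with 12 of 14 more negative in wild type. For the subcortical maternal complex and NLRP genes they were -0.33 and 1.33, with 16 of 23 more negative in wild type. Respiratory chain genes had medians of -2.48 in wild type and -0.92 in libraries labelled Btg4-/-, with 48 of 77 more negative in wild type. Cytosolic ribosomal proteins had medians of -1.83 in wild type and -2.63 in libraries labelled Btg4-/-, with 23 of 79 more positive and 20 more negative in wild type as deposited, and with 35 to 36 more positive and 12 to 17 more negative under the other 3 scalings. In each of these 5 lists the order of the 2 genotypes' medians was the same under all 4 scalings. These list values are counts and medians, and no list was tested as a set.

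**Figure D5:**
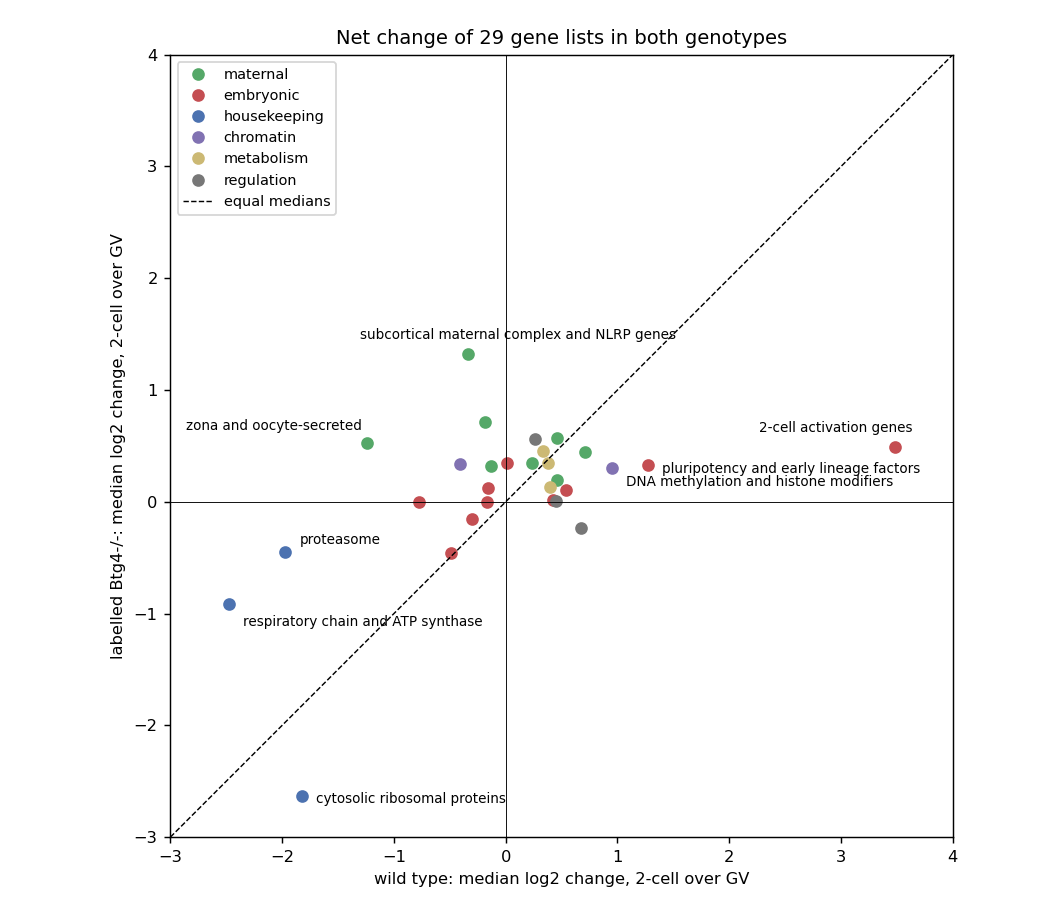
Median log2 change (2-cell over GV) of 29 gene lists in wild type (horizontal axis) and in libraries labelled Btg4-/- (vertical axis), coloured by class of list; the dashed line marks equal medians. The 2-cell activation genes lie far below the line (3.48 against 0.49), and the subcortical maternal complex and NLRP genes lie above it (-0.33 against 1.33).

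Single genes ranged from large differences between the genotypes to nearly equal changes. Pabpn1l had 15 and 20.2 FPKM in wild-type 2-cell embryos and 440.0 and 406 FPKM in those labelled Btg4-/-, with GV values of 1216 and 1209 FPKM in wild type and 926 and 858 FPKM in the other genotype. Its net change was -6.04 in wild type and -1.08 in libraries labelled Btg4-/-, a difference of -4.97 (adjusted p = 1.85e-08). Figla was listed at 0 in wild-type 2-cell embryos and at 20.8 and 46.2 FPKM in those labelled Btg4-/-, with GV values of 14.9 and 15.8 FPKM in wild type and 6.33 and 4.33 FPKM in the other genotype. Ccne1 changed by 4.30 in wild type and by -2.54 in libraries labelled Btg4-/- (difference 6.83, adjusted p = 1.83e-07). Khdc1c, by contrast, rose by 3.69 in wild type and changed by 3.76 in the libraries labelled Btg4-/- (difference -0.07, SE 0.20).

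Markers of the labelled cell types and of other cells that the samples could hold moved as follows. The 15 oocyte markers summed to 2335 and 2183 FPKM in 2-cell embryos, against 12465 and 11499 FPKM in GV oocytes, with 3 higher and 11 lower. The 20 listed 2-cell markers summed to 662 and 496 FPKM in 2-cell embryos, against 289 and 290 FPKM in GV oocytes, where 15 and 12 of them were at 0 and Sp110 gave 288 and 288 FPKM. Of 24 granulosa and cumulus markers 11 were members, 2 of these rose and 8 fell, and the list summed to 16.8 and 21.1 FPKM in 2-cell embryos, against 81.0 and 86.8 FPKM in GV oocytes. Against the Erk-experiment GV library 2 of 10 members were higher and 2 lower, and the median of -1.13 became 0. Inha, an inhibin subunit, was listed at 0 in both 2-cell libraries, against 43.7 and 48 FPKM in the GV libraries, and Inhba was at 0 against 11.9 and 16 FPKM. In bulk samples fewer cells of a type and less RNA per cell cannot be told apart, and the part of such cells in the falls of other genes was not tested. Of the 2 granulosa markers that rose, Amhr2, the receptor of anti-Mullerian hormone, had 11.3 and 11.8 FPKM in 2-cell embryos against 1.74 and 1.01 FPKM in GV oocytes, and only 1 rose without either GV library or without the second 2-cell library. Sperm markers summed to 19.3 and 23.3 FPKM in 2-cell embryos and 10.04 and 13.2 FPKM in GV oocytes, and 2 of 5 members rose, named here after their values were seen. They were Odf2, an outer dense fibre protein also made in other cells, with 10.6 and 15.6 FPKM in 2-cell embryos against 2.07 and 1.70 FPKM in GV oocytes, and the kinase gene Tssk6, with 2.24 and 5.41 FPKM in 2-cell embryos against 0.519 and 1.15 FPKM in GV oocytes. Against the Erk-experiment GV library 1 member was higher and 3 were lower. Of the 3 others, Prm2, a protamine, had 1.88 and 0 FPKM in 2-cell embryos against 1.9 and 3.84 FPKM in GV oocytes, which did not pass, although Prm2 was called lower without the first 2-cell library. Blood markers summed to 13.9 and 10.7 FPKM in 2-cell embryos and 2.50 and 0.738 FPKM in GV oocytes, with the globin Hba-a1 at 10.2 and 8.42 FPKM in 2-cell embryos against 1.58 and 0.647 FPKM in GV oocytes.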

How the data were processed

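The authors deposited a gene-level FPKM table for each library, and the values were made with CASAVA 1.8, TopHat and Cufflinks on the mouse build mm9, per the submitters' processing notes; the notes name TopHat and Cufflinks with no version. Libraries were paired-end on a HiSeq instrument from mRNA purified with a NEB kit, per the labels' protocols, and strand use in the estimation is not stated.

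FPKM of loci with the same symbol were summed (260 symbols had more than 1 locus), giving 23309 symbols. Genes with a mean of at least 1 FPKM in any of 8 groups (12311) were fitted on the log2 scale after adding a pseudocount of 1, by limma 3.58.1 (R 4.3.3) with a trended prior and 1 mean per group over 16 libraries, and Benjamini-Hochberg adjustment over all of them. A fold change is on the log2(FPKM + 1) scale, which understates the change of low genes, and a value listed at 0 can be a failed estimate. Python 3.11.15 with pandas 2.3.3 made the tables. FPKM holds no counts, and fragment numbers are only implied by the width of the deposited intervals, so no interval or floor is given. On simulated data for this comparison (12311 genes) the fit recovered 30 of 100 genes changed by a log2 value of 1 and 72 of 100 changed by 2, with 8 false calls. Only these genes were changed there, in the wild-type 2-cell group, and each gene otherwise had the same mean in all groups. Far more genes were called in the data, where the adjustment is less strict, so these shares do not give the recovery in the data.

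Replicate numbers were not shown to pair libraries. The named genes are the 12 largest rises and 12 largest falls at 10 FPKM or more that do not overlap, up to 3 rises, 3 falls and 2 not called from each of 34 lists, all pair members, up to 6 dips and 6 peaks, and up to 5 genes per direction for the genotype difference, of which the text gives a part. Clone names (Gm plus digits, AU, BC, LOC or Rik) were left out of the largest rises, falls and genotype differences. Some clone-named genes rose as much, as in the run of Gm4340, Gm20765 and Gm21304, whose log2 changes ran from 3.23 to 7.38. Zp3, Rn45s, Zfp352, the Zscan4 genes, genes in positional runs and the promoters shown were chosen after their values were seen. The members and lists were chosen with earlier results of these data known. Alternatives were other scalings, pseudocounts, filters, library subsets, a replicate block, the GV library of the Erk experiment and a length correction added after seeing the data.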

Additional observations from a re-analysis of the deposited data

Results flagged for a closer look

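The net change from GV oocyte to 2-cell embryo differed between wild type and the libraries labelled Btg4-/- by the test of that difference in limma for 1966 members, where it was more positive in wild type, and for 2477, where it was more negative. Each value below is the difference of log2 changes, wild type minus the libraries labelled Btg4-/-, and comes from 2 libraries a group. Where a group is listed at 0 the size depends on the pseudocount of 1.

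On the positive side, Mt1 changed by 6.16 in wild type and by -0.98 in libraries labelled Btg4-/-, a difference of 7.14 (adjusted p = 0.000135), with 2-cell values of 109 and 179 FPKM in wild type and 0 in both libraries of the other genotype. Cd63, a tetraspanin of late endosomes, gave a difference of 7.23, with 153 and 212 FPKM in wild-type 2-cell embryos and 0 in both of those labelled Btg4-/-. Ubald2 gave 6.93, and Iqcf1 gave 6.88, with overlapping 2-cell values of 17 and 2.54 FPKM in wild type and 3.4 and 0 FPKM in libraries labelled Btg4-/-. For Iqcf1 these 2-cell values give only a part of the difference, and the rest lies between the GV libraries of the genotypes. Snora17 gave 11.64, with GV values of 0 and 0 FPKM in wild type and 0 and 179 FPKM in libraries labelled Btg4-/-, and rests on an RNA too short for a stable FPKM.

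On the negative side, Ccdc23 gave -7.28, with 1.59 and 0 FPKM in wild-type 2-cell embryos and 118 and 130.3 FPKM in those labelled Btg4-/-. Dynlt1c gave -6.87, with 0.0643 and 0.112 FPKM in wild-type 2-cell embryos and 111 and 129 FPKM in the other genotype. Figla gave -6.39, with 0 in both wild-type 2-cell libraries and 20.8 and 46.2 FPKM in their Btg4-/- counterparts. Cox7c, a subunit of cytochrome c oxidase, gave -5.98, and Acn9, an assembly factor of succinate dehydrogenase, gave -5.80.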

How the results depend on the processing

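The counts of genes higher and lower and of genes with a different net change in wild type kept within 1.5 times their value under every alternative run, apart from 2 of them: 1758 genes were at least 2-fold higher with a pseudocount of 5, and the net change was more negative in wild type for 1536 with total scaling. Leaving out 1 of the 4 libraries gave 3751 to 4021 genes higher, 3043 to 3231 lower, 3264 to 3422 and 2685 to 2760 at least 2-fold higher and lower, and 1581 to 2018 and 2081 to 2396 with a more positive and a more negative net change in wild type. Dips numbered 457 with a pseudocount of 0.1 and 100 with a pseudocount of 5, peaks numbered 94 with a pseudocount of 5, and leaving out a library gave 186 to 210 dips and 161 to 169 peaks.

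Replicate numbers were not shown to pair the libraries: deviations from the group means correlated at 0.0007 between wild-type 2-cell and GV libraries of the same number, and at -0.0148 to 0.126 over 28 pairs of groups. With the replicate block 4362 genes were higher and 3470 lower, 3430 and 2817 at least 2-fold, and 2018 and 2551 had a more positive and a more negative net change in wild type. The block moved no call of the 149 genes that the text gives and the fit names. Of these genes, the sign of the change turned for 11 against the GV library of the Erk experiment: Bmp15 -1.05, Tgfb2 -0.019, Cdc25b -0.84, Smc4 -5.57, Iqcf1 -1.99, Odf2 -2.61, Rad21 -0.69, Yrdc 1.55, Prdx2 1.12, Elavl1 0.85 and Btg4 2.28, as log2 changes. Among all 313 genes that the rules for named genes picked, it turned for 87, so the genes printed here turned less often than the named genes as a whole. Pttg1, Prdx2 and Btg4 stood at 0.60, 0.48 and 0.053 with total scaling and at 0.85, 0.69 and 0.30 after quantile normalization. The cause was not tested. With 2 libraries a group, genes not called may still differ.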
